A study of Mus musculus with 8 samples.

Results

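DNA replication and mitosis genes are the set of transcripts that a cell makes when it copies its genome and divides, and 40 of them were examined among the 35596 genes of the table. They were taken by symbol from a list of S-phase and mitosis genes, 26 for mitosis and 14 for replication, with no filter on level, because 31 of the 40 had a mean below 1 TPM. The samples were islets of the pancreas, small groups of endocrine cells, hand-picked after collagenase P digestion, from male mice of the inbred strain C57BL/6J. The 4 libraries of the obese group had mice kept first on feed with 10% fat (9 weeks) and thereafter on 60% fat (18 weeks). In the weight-cycled group, also 4 libraries, 3 periods of 9 weeks each followed one another, on 60%, 10% and again 60% fat. The age of the mice, and whether each library was a separate animal, do not stand in the sources used here, so the p-values below rest on differences among libraries that may be only technical. Both groups ended on the same diet, and the last unbroken period on it was 18 weeks in one and 9 weeks in the other, which cannot be told apart here from the weight loss and regain. Values were TPM, in which a gene's reads are divided by its transcript length and scaled to a fixed total per library. They keep no read number, so the depth is unknown and a value of a few hundredths of a TPM may rest on very few reads.

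A dividing cell passes through G1, S phase, G2 and mitosis. In S phase a helicase built from the Mcm proteins opens the DNA, the Pcna clamp holds the polymerases, and enzymes such as ribonucleotide reductase and thymidylate synthase supply the nucleotides. In late G2 the kinase Cdk1, bound to cyclins A and B, drives entry into mitosis, and the anaphase-promoting complex later destroys these cyclins so that the cell can leave it. Most of the mitosis genes are transcribed in G2, under shared control by the DREAM and MuvB complexes, B-Myb and Foxm1, whereas E2F factors act earlier on the replication genes. Beta cells of adult mouse islets divide rarely, and islets also hold endothelial, immune and stromal cells that can divide.

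In the deposited values, most mitosis genes were higher in every weight-cycled library than in any obese one, whereas 10 of 14 replication genes overlapped between the groups. Every weight-cycled library lay above every obese library for 24 of the 40 members, 20 of the 26 mitosis genes and 4 of the 14 replication genes (Mcm5, Gins2, Tk1 and Rrm2). The same held for 1.19% of all 19482 genes above 0 TPM in at least 1 library, and for 1.1% of those with a mean below 1 TPM. The opposite, every weight-cycled library below, held for 0 members and for 12.2% of all genes. The weight-cycled mean was over 2 times the obese mean for 23 of 26 mitosis genes (median ratio 5.15, range 1.47 to 12.7) and for 3 of 14 replication genes, Mcm5, Tk1 and Gins2 (median ratio 1.23, range 0.808 to 5.77). On the log2(TPM + 1) scale, which shrinks the change of low genes, the median difference (weight-cycled minus obese) was 0.32 for mitosis genes, 0.13 for replication genes and -0.07 for all genes tested. The last depended on level, at -0.26 for all genes with a mean of at least 1 TPM and -0.01 for those below.

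No member passed the threshold of 0.05 on the adjusted p in the fit of all 19482 genes, in which limma called 0 genes (percent called: 0; 5686 at an unadjusted p under 0.05). At an unadjusted p under 0.05, 26 of 40 members were higher and 0 lower, where 2.07% of all genes were higher and 27.1% lower. The smallest adjusted p in the fit, 0.0912, was shared by 12 members, Cdk1, Ccnb1, Ccnb2, Ccna2, Cenpa, Birc5, Ube2c, Cdc20, Aurka, Cks2, Cdca3 and Mcm5. It was a tie of 612 genes, 78 of them higher and 534 lower. At a threshold of 0.1, 16 members were called, all higher, where 0.683% of all genes were called higher. Statements below that a gene was higher or lower are thus descriptions of the values unless a call is named.

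**Figure D1:**
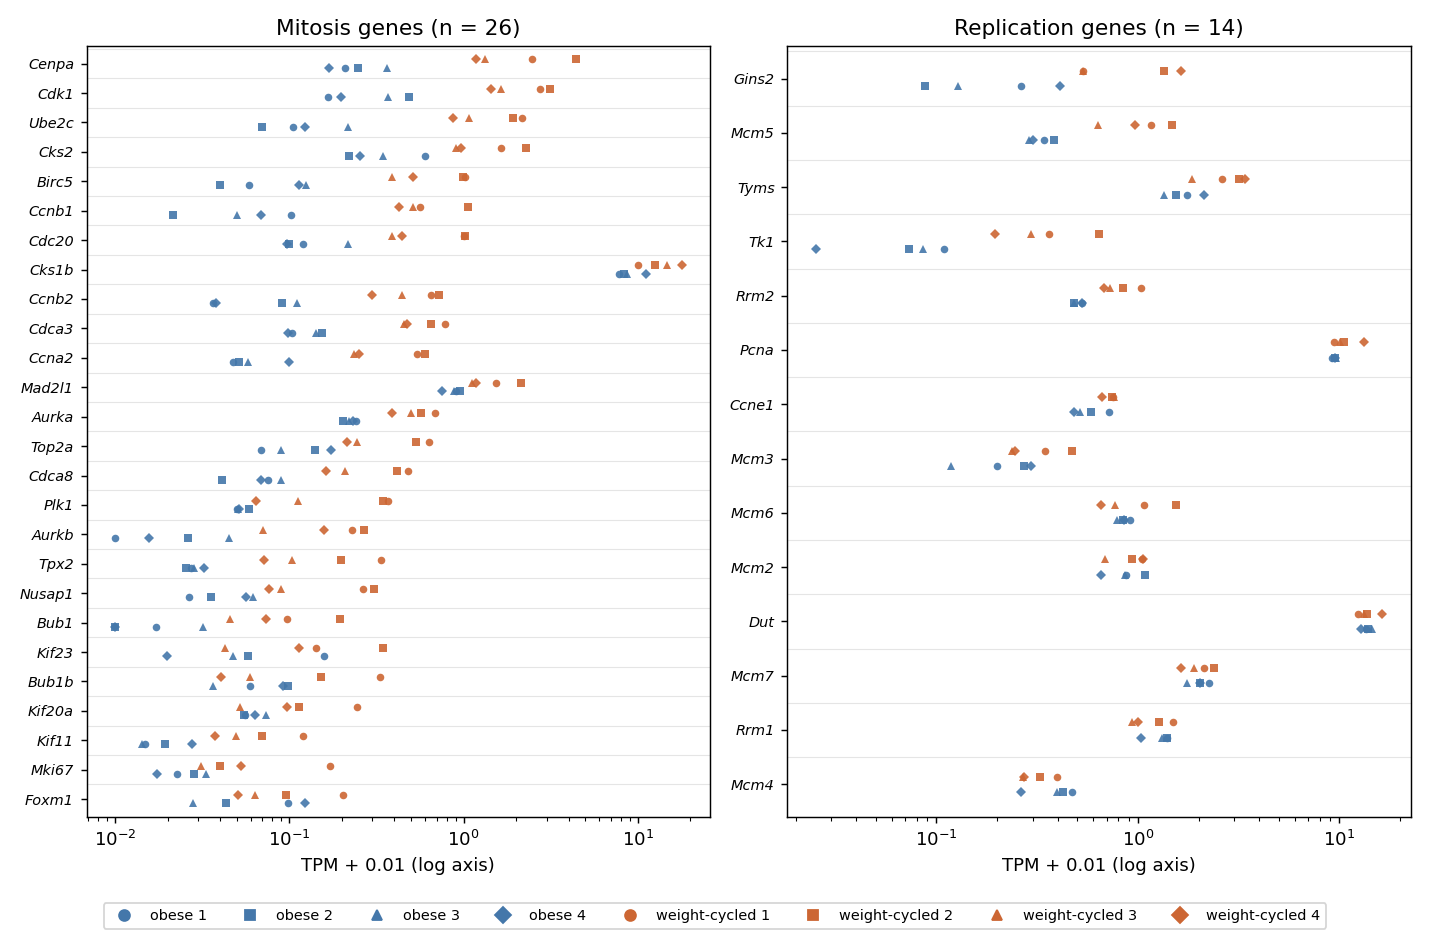
TPM of each member in each of the 8 libraries, on a log axis of TPM + 0.01, with mitosis genes on the left and replication genes on the right, ordered by the difference between groups. Colour gives the group and shape the replicate. For 20 of 26 mitosis genes and 4 of 14 replication genes all weight-cycled points lie to the right of all obese points.

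Cdk1, its cyclins and Cks2 separated the groups without overlap. Cdk1 (ENSMUSG00000019942.13, chromosome 10, 69335146 to 69352938, minus strand, build mm10), the kinase that starts mitosis, was at 0.158, 0.476, 0.356 and 0.189 TPM in obese replicates 1 to 4 and at 2.72, 3.13, 1.62 and 1.42 TPM in weight-cycled replicates 1 to 4. Every weight-cycled library was above every obese one. Its means were 0.295 ± 0.149 TPM on the obese side against 2.22 ± 0.833 TPM on the weight-cycled side (SD, n = 4 each), a ratio of 7.54 and a log2 difference of 1.29 (SE 0.19), with limma adjusted p = 0.0912. Ccnb1 (ENSMUSG00000041431.16, chromosome 13, 100778650 to 100786570, minus strand), which encodes cyclin B1, was at 0.0924, 0.0115, 0.04 and 0.0585 TPM in obese replicates 1 to 4 and at 0.549, 1.05, 0.504 and 0.419 TPM in weight-cycled replicates 1 to 4. All 4 obese values lay near the floor of the table, and the ratio of means was 12.4 with a log2 difference of 0.62 (SE 0.108). Ccnb2, for cyclin B2, was at 0.0264, 0.0804, 0.101 and 0.0281 TPM in obese replicates 1 to 4 and at 0.643, 0.712, 0.434 and 0.288 TPM in weight-cycled replicates 1 to 4. Its groups did not overlap either, with a log2 difference of 0.51 (SE 0.0874) and limma adjusted p = 0.0912. Ccna2, for cyclin A2, which acts from S phase into early mitosis, was at 0.0372, 0.0413, 0.0477 and 0.0895 TPM in obese replicates 1 to 4 and at 0.533, 0.591, 0.226 and 0.24 TPM in weight-cycled replicates 1 to 4. Its exons share 510 bases with Exosc9 on the opposite strand (mean 5.58 TPM), so reads of the pair may be mixed. Weight-cycled replicates 1 and 2 were the highest libraries for it, as for Cdk1 and both B cyclins.

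Cks1b and Cks2 encode small proteins that bind Cdk1 and help it reach its targets. Cks2 was at 0.592, 0.209, 0.335 and 0.243 TPM in obese replicates 1 to 4 and at 1.62, 2.27, 0.894 and 0.959 TPM in weight-cycled replicates 1 to 4, without overlap and with a log2 difference of 0.83 (SE 0.189). Cks1b had the highest level of the mitosis genes, 8.97 ± 1.47 TPM on the obese side against 13.8 ± 3.31 TPM on the weight-cycled side (SD, n = 4), and its groups overlapped, with 7.8 to 11.1 TPM over the obese and 9.99 to 17.8 TPM over the weight-cycled libraries. Cks1b differed from the rest of this role in its pattern among weight-cycled libraries, where replicate 4 was highest and replicate 1 lowest. Foxm1, the factor that activates many G2 genes, showed no separation, at 0.0181 to 0.113 TPM over the obese and 0.0406 to 0.193 TPM over the weight-cycled libraries and a log2 difference of 0.04 (SE 0.0475) (limma adjusted p = 0.602).

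The promoters of the members with the smallest p-values are shown because the mitosis genes were high in the same libraries and many share known control elements in this window. Promoters were matched in the RefSeq table (build GRCm38.p6) for 33 of the 40 members, and Ccna2, Aurkb, Kif20a, Foxm1, Tpx2, Mcm4 and Gins2 had no entry. Each runs from 250 bases before to 50 bases after the gene's start, 5′ to 3′ on the gene's strand. Capitals mark matches on either strand to the CCAAT box, to which NF-Y binds, and to the cell cycle genes homology region, CHR, with the letters TTTGAA or its second form TTCGAA, to which MuvB complexes bind. They also mark an E2F core, searched as TTCCCGC, as the second form TTGGCGC and as the third form TTCGCGC. In Ube2c a pair of CCAAT matches on opposite strands overlap and print as 1 run. The windows are chr6:124829926-124830225, plus strand, for Cdca3, chr10:69352863-69353162, minus strand, for Cdk1, chr2:164769679-164769978, plus strand, for Ube2c, and chr9:70421505-70421804, minus strand, for Ccnb2.
Cdca3: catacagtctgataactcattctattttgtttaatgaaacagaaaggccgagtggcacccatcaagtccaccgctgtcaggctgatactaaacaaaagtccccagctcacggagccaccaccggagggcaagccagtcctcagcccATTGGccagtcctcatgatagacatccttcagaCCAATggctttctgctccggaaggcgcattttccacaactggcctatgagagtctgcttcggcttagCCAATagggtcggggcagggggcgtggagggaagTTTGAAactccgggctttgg
Cdk1: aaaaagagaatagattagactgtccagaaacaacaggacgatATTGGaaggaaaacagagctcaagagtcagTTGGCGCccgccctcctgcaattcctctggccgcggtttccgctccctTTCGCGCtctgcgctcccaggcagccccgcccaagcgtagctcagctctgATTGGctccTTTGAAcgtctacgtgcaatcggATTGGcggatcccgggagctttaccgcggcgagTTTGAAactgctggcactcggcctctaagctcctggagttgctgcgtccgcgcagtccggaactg
Ube2c: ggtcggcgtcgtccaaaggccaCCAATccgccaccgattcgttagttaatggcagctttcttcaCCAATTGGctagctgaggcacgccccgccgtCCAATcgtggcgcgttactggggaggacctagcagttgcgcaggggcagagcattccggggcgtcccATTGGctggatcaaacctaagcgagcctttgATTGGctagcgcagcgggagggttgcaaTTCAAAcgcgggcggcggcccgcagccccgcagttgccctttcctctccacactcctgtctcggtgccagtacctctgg
Ccnb2: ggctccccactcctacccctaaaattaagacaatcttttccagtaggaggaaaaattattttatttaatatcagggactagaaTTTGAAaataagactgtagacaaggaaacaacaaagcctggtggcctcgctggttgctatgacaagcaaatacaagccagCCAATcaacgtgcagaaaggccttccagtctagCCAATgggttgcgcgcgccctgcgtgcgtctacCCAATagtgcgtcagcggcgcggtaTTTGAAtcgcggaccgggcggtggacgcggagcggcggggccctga

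In Cdk1 a CHR match lay 15 to 10 bases before the start and a CCAAT match 48 to 44 bases before it. In Ccnb2 a CHR match lay at bases 5 to 10 after the start, with CCAAT matches beginning 21, 54 and 87 bases before it. Both a CCAAT and a CHR match were present in the promoters of 16 of 21 mitosis genes (76.2%), of 2 of 12 replication genes (16.7%) and of 8.6% of all 27025 genes in the table. A CHR match, with or without CCAAT, was in 76.2%, 16.7% and 21.7%, and a CCAAT match, with or without CHR, in 85.7%, 66.7% and 41.1%. The E2F core was in 3 of 21 mitosis genes (14.3%), in 5 of 12 replication genes (41.7%) and in 9.2% of all genes. Members whose groups did not overlap held both CCAAT and CHR in 12 of 20 (60%) and the others in 6 of 13 (46.2%). The former held a larger share of mitosis genes. Within the mitosis list and within the replication list, the pair was not more frequent in members without overlap. A match is a run of letters and not a bound site.

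The 5 members listed as mitotic kinases or as parts of the chromosomal passenger complex, which corrects the attachment of chromosomes to the spindle, did not overlap between groups. Incenp, another passenger subunit, and Ttk, another mitotic kinase, which belong to the further mitosis list and are named after their values were seen, did overlap, with log2 differences of 0.01 (SE 0.0673) and 0.04 (SE 0.0274). Birc5 (ENSMUSG00000017716.15, chromosome 11, 117849251 to 117855743, plus strand), the passenger subunit survivin, was at 0.0488, 0.03, 0.114 and 0.103 TPM in obese replicates 1 to 4 and at 1.01, 0.978, 0.379 and 0.505 TPM in weight-cycled replicates 1 to 4. The weight-cycled mean was 9.71 times the obese mean, with a log2 difference of 0.66 (SE 0.126). Cdca8, the borealin subunit, was at 0.0655, 0.0312, 0.0795 and 0.0589 TPM in obese replicates 1 to 4 and at 0.471, 0.406, 0.199 and 0.153 TPM in weight-cycled replicates 1 to 4. Aurkb, the complex's kinase, was at 0, 0.0163, 0.0351 and 0.0057 TPM in obese replicates 1 to 4 and at 0.22, 0.259, 0.061 and 0.149 TPM in weight-cycled replicates 1 to 4, and obese replicate 1 was listed at 0. Aurka, the kinase of spindle poles, was at 0.23, 0.192, 0.21 and 0.223 TPM in obese replicates 1 to 4 and at 0.671, 0.556, 0.491 and 0.377 TPM in weight-cycled replicates 1 to 4. Its log2 difference was 0.32 (SE 0.0599) with limma adjusted p = 0.0912. Plk1, the polo-like kinase that acts from mitotic entry to cell division, was at 0.0404, 0.0486, 0.0409 and 0.0416 TPM in obese replicates 1 to 4 and at 0.36, 0.336, 0.102 and 0.0541 TPM in weight-cycled replicates 1 to 4. Its groups only just separated, since weight-cycled replicate 4 was at 0.0541 TPM and obese replicate 2 at 0.0486 TPM.

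Cenpa (ENSMUSG00000029177.9, chromosome 5, 30666777 to 30674830, plus strand), the histone variant that marks centromeres, had a log2 difference of 1.33 (SE 0.275), the highest of the members at a pseudocount of 1 but not at 0.1, where Ube2c was first, or after length removal, where Cdk1 was, with limma adjusted p = 0.0912. It was at 0.198, 0.238, 0.355 and 0.158 TPM in obese replicates 1 to 4 and at 2.46, 4.38, 1.31 and 1.17 TPM in weight-cycled replicates 1 to 4. Weight-cycled replicate 2 was highest, and the ratio of means was 9.82. The checkpoint genes among the members, which delay anaphase until chromosomes are attached, differed among themselves. Mad2l1 was present in every library, at 0.889, 0.949, 0.868 and 0.74 TPM in obese replicates 1 to 4 and at 1.52, 2.11, 1.11 and 1.16 TPM in weight-cycled replicates 1 to 4, with a log2 difference of 0.40 (SE 0.134). Bub1 was at 0.00707, 0, 0.022 and 0 TPM in obese replicates 1 to 4 and at 0.0865, 0.184, 0.0357 and 0.063 TPM in weight-cycled replicates 1 to 4, so that all values were low and obese replicates 2 and 4 were listed at 0. The highest ratio of means of all members, 12.7, thus belonged to a gene with a log2 difference of 0.12 (SE 0.0376). Bub1b overlapped between groups, at 0.0262 to 0.0883 TPM over the obese and 0.0308 to 0.323 TPM over the weight-cycled libraries (limma adjusted p = 0.446).

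All 3 genes around the anaphase-promoting complex separated the groups. Ube2c (ENSMUSG00000001403.13, chromosome 2, 164769898 to 164778822, plus strand), the complex's ubiquitin-conjugating enzyme, was at 0.0948, 0.0594, 0.208 and 0.113 TPM in obese replicates 1 to 4 and at 2.17, 1.9, 1.06 and 0.856 TPM in weight-cycled replicates 1 to 4. Its ratio of means was 12.6 and its log2 difference 1.12 (SE 0.174), with limma adjusted p = 0.0912. Cdc20, the activator of the complex in mitosis, was at 0.109, 0.0891, 0.206 and 0.0875 TPM in obese replicates 1 to 4 and at 0.989, 1.01, 0.379 and 0.43 TPM in weight-cycled replicates 1 to 4. Cdca3, which takes part in triggering mitotic entry through Wee1 degradation, was at 0.0929, 0.144, 0.133 and 0.0887 TPM in obese replicates 1 to 4 and at 0.776, 0.641, 0.444 and 0.464 TPM in weight-cycled replicates 1 to 4. Cdca3 had the smallest p of all members (limma adjusted p = 0.0912), with means of 0.115 ± 0.0281 TPM on the obese side against 0.581 ± 0.158 TPM on the weight-cycled side (SD, n = 4) and a log2 difference of 0.50 (SE 0.0694).

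Spindle and motor genes lay lower, with log2 differences of 0.07 to 0.19 on a scale that shrinks the change of low genes. Their ratios of means were 9.11 for Tpx2, 6.51 for Kif11, 4.98 for Nusap1, 2.49 for Kif23 and 2.25 for Kif20a. Tpx2, an activator of Aurka on the spindle, was at 0.0174, 0.0155, 0.0185 and 0.0223 TPM in obese replicates 1 to 4 and at 0.327, 0.188, 0.093 and 0.0618 TPM in weight-cycled replicates 1 to 4. Nusap1, which bundles spindle microtubules, was at 0.0166, 0.0257, 0.0515 and 0.0465 TPM in obese replicates 1 to 4 and at 0.255, 0.297, 0.08 and 0.0666 TPM in weight-cycled replicates 1 to 4. Kif11, the motor that pushes spindle poles apart, was at 0.00491, 0.00945, 0.00436 and 0.0177 TPM in obese replicates 1 to 4 and at 0.11, 0.0601, 0.0392 and 0.0276 TPM in weight-cycled replicates 1 to 4. For these 3 genes the obese values were all below 0.1 TPM and weight-cycled replicates 1 and 2 were the highest libraries. Kif20a and Kif23, motors of the dividing cell's midzone, overlapped between groups, at 0.0451 to 0.0638 TPM over the obese and 0.0423 to 0.236 TPM over the weight-cycled libraries for Kif20a and 0.00987 to 0.148 TPM over the obese and 0.0329 to 0.336 TPM over the weight-cycled libraries for Kif23. Top2a, the topoisomerase that untangles chromosomes, was at 0.0586, 0.13, 0.08 and 0.163 TPM in obese replicates 1 to 4 and at 0.622, 0.525, 0.233 and 0.204 TPM in weight-cycled replicates 1 to 4, with a log2 difference of 0.32 (SE 0.0996) and limma adjusted p = 0.106. Mki67, the common marker of dividing cells, was at 0.0126, 0.0185, 0.0234 and 0.00734 TPM in obese replicates 1 to 4 and at 0.162, 0.0298, 0.0211 and 0.0428 TPM in weight-cycled replicates 1 to 4. Its groups overlapped, and weight-cycled replicate 1 stood alone above the other 7 libraries.

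**Figure D2:**
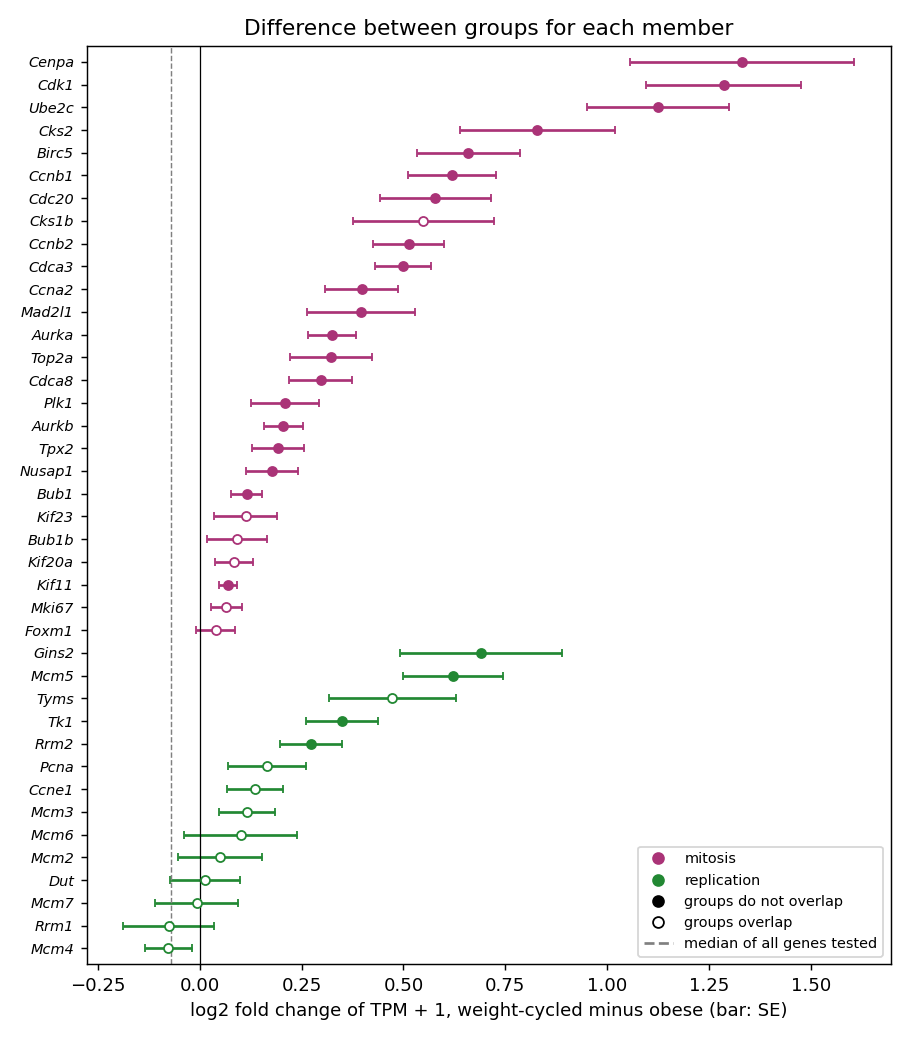
Log2 difference of TPM + 1 (weight-cycled minus obese, bars are the SE from limma) for each member, coloured by list. Filled points are the 24 members whose groups do not overlap, and the dashed line is the median of all genes tested, -0.07. All 26 mitosis genes lie above 0, and 3 of 14 replication genes (Mcm4, Rrm1 and Mcm7) lie below it, as deposited, and above it after median-of-ratios scaling.

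Among replication genes, Mcm5 and Gins2 stood out from the other helicase genes. Mcm5 (ENSMUSG00000005410.6, chromosome 8, 75109569 to 75128439, plus strand), a subunit of the replicative helicase, was at 0.331, 0.372, 0.277 and 0.291 TPM in obese replicates 1 to 4 and at 1.16, 1.46, 0.626 and 0.957 TPM in weight-cycled replicates 1 to 4. Its ratio of means was 3.31 and its log2 difference 0.62 (SE 0.123), with limma adjusted p = 0.0912. The other 5 Mcm genes measured, which encode partners of Mcm5 in the same ring, overlapped between groups. Their log2 differences were 0.05 (SE 0.103) for Mcm2, 0.12 (SE 0.0695) for Mcm3, -0.08 (SE 0.0581) for Mcm4, 0.10 (SE 0.138) for Mcm6 and -0.01 (SE 0.101) for Mcm7. Mcm7, the most abundant of them, was at 2.01 ± 0.209 TPM on the obese side against 2 ± 0.326 TPM on the weight-cycled side (SD, n = 4). Mcm4 and Mcm7 turned above 0 after median-of-ratios scaling, at 0.01 and 0.22. Gins2, which joins the helicase when origins fire, was at 0.252, 0.078, 0.117 and 0.401 TPM in obese replicates 1 to 4 and at 0.524, 1.34, 0.524 and 1.64 TPM in weight-cycled replicates 1 to 4. Its exons share 2758 bases with Gse1 on the opposite strand (mean 1.03 TPM). Weight-cycled replicates 2 and 4 were highest for it, where replicates 1 and 2 were for 22 of 26 mitosis genes.

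Pcna, the polymerase clamp, and Ccne1, the cyclin of S-phase entry, did not separate the groups. Pcna was at 9.24 to 9.59 TPM over the obese and 9.42 to 13.2 TPM over the weight-cycled libraries, with means of 9.46 ± 0.149 TPM on the obese side against 10.8 ± 1.68 TPM on the weight-cycled side (SD, n = 4) and a log2 difference of 0.17 (SE 0.0959). Ccne1 was at 0.473 to 0.707 TPM over the obese and 0.65 to 0.751 TPM over the weight-cycled libraries, with a log2 difference of 0.14 (SE 0.0685). Of the genes of nucleotide supply, Rrm2, the subunit of ribonucleotide reductase made in S phase, was at 0.52, 0.474, 0.472 and 0.519 TPM in obese replicates 1 to 4 and at 1.03, 0.834, 0.713 and 0.672 TPM in weight-cycled replicates 1 to 4. Rrm1, the enzyme's larger subunit, was at 1.02 to 1.39 TPM over the obese and 0.924 to 1.49 TPM over the weight-cycled libraries, with a log2 difference of -0.08 (SE 0.111) that became 0.11 after median-of-ratios scaling. Tk1, the cytosolic thymidine kinase, was at 0.0988, 0.0629, 0.0752 and 0.0151 TPM in obese replicates 1 to 4 and at 0.351, 0.631, 0.285 and 0.186 TPM in weight-cycled replicates 1 to 4, a ratio of means of 5.76 and a log2 difference of 0.35 (SE 0.0888). Tyms, thymidylate synthase, was higher in mean, 1.68 ± 0.33 TPM on the obese side against 2.75 ± 0.69 TPM on the weight-cycled side (SD, n = 4), but weight-cycled replicate 3 at 1.84 TPM lay below obese replicate 4 at 2.11 TPM. Dut, which removes dUTP and had the highest level of all replication genes, was at 13.7 ± 0.699 TPM on the obese side against 13.9 ± 1.72 TPM on the weight-cycled side (SD, n = 4), with a log2 difference of 0.01 (SE 0.0869).

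The weight-cycled libraries differed among themselves more than the obese ones. Averaged as log2(TPM + 1), the mitosis genes ranged from 0.27 to 0.29 over obese libraries and from 0.55 to 0.87 over weight-cycled libraries. The replication genes ranged from 1.10 to 1.18 and from 1.19 to 1.47. Weight-cycled replicates 1 and 2 were the highest pair of libraries for 22 of 26 mitosis genes and for 5 of 14 replication genes. The highest library was weight-cycled replicate 1 for 13 mitosis genes, replicate 2 for 12 and replicate 4 for 1 (Cks1b). The summed level of the 26 mitosis genes was 10.9 to 13.9 TPM in obese and 24.6 to 34.8 TPM in weight-cycled libraries. In bulk islets, fewer or more dividing cells and less or more of these transcripts in each cell cannot be told apart.

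**Figure D3:**
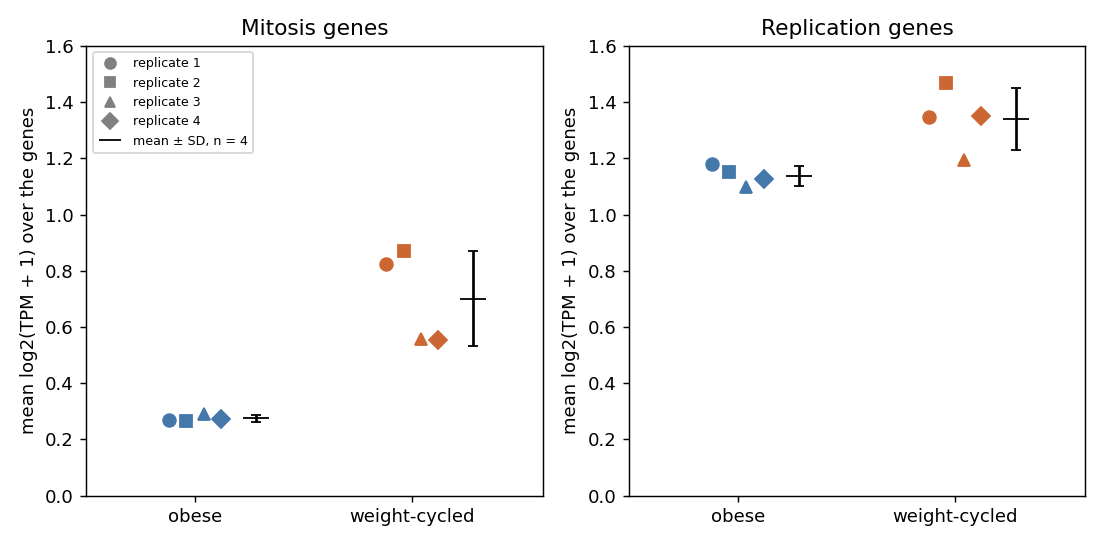
Mean log2(TPM + 1) over the 26 mitosis genes (left) and the 14 replication genes (right) in each library, with shapes for replicates and black bars for the group mean ± SD (n = 4). The 4 obese libraries lie within 0.27 to 0.29 for mitosis genes, below weight-cycled replicates 3 and 4 and, higher, replicates 1 and 2.

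Transcript length moved with the libraries and was measured beside the members. Over the 8127 genes with a mean of at least 1 TPM, the deviation of a gene from its mean was positively related to length in the obese libraries and in weight-cycled replicate 1 (Spearman's rho 0.183 to 0.375) and negatively in weight-cycled replicates 2, 3 and 4 (-0.399 to -0.283). These are correlations across genes, which are not independent replicates. Weight-cycled replicate 1 was thus on the obese side in its length trend and, with replicate 2, highest for the mitosis genes. Without it, groups did not overlap for 26 members, where 2.31% of all genes were higher without overlap, and the median log2 difference of mitosis genes was 0.26. In that fit limma called 20 members, all higher (1.41% of all genes were called higher).

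Members were split at the median of their longest protein-coding transcripts, 3097 bases. The 13 mitosis genes with shorter transcripts had a median log2 difference of 0.51 and groups that did not overlap in 12 (92.3%), and the 13 with longer ones a median of 0.12 and 8 (61.5%). The log2(TPM + 1) scale shrinks the change of low genes, so these medians do not compare fold changes. Ratios of means ran from 1.53 (Cks1b) to 12.6 (Ube2c) in the shorter mitosis genes. In the longer ones they ran from 1.47 (Foxm1) to 12.7 (Bub1). The 7 shorter and the 7 longer replication genes had medians of 0.14 and 0.10, with 2 each without overlap. All genes of the same length ranges had medians of -0.06 (8196 genes) and -0.16 (7678 genes), and 1.98% and 0.63% were higher without overlap. With the median transcript length of each gene in place of the longest, mitosis genes had medians of 0.53 (12 shorter) and 0.18 (14 longer), with 10 of 12 and 10 of 14 without overlap. Cdk1 (longest transcript 4375 bases), Top2a (5221 bases) and Mad2l1 (7557 bases) were among the longer genes without overlap. By its median transcript length, 1253 bases, Cdk1 was instead among the shorter genes. After the trend with length was removed from each library, limma called 20 members, all higher (18 mitosis genes, Mcm5 and Tk1), where 0.575% of all genes were called higher. That correction shifts genes near 0 TPM as much as others of their length, and 2 of these calls, Kif20a and Mki67, were of genes whose deposited values overlapped between groups.

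**Figure D4:**
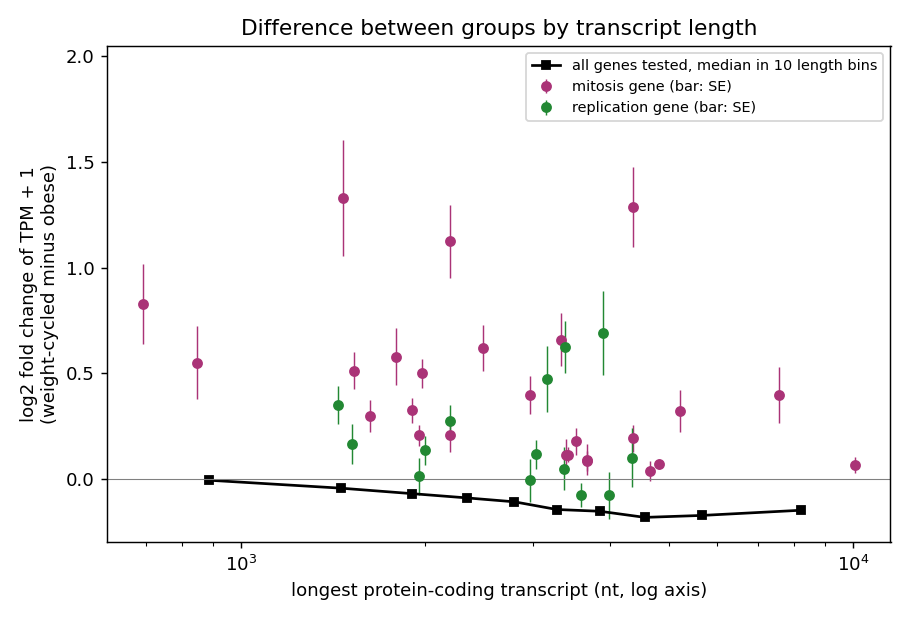
Log2 difference of TPM + 1 (weight-cycled minus obese, bars are the SE) of each member against the length of its longest protein-coding transcript on a log axis, with the median of all genes tested in 10 length bins as black squares. The bin medians go from -0.01 in the shortest bin to -0.18 in the eighth, and all mitosis genes lie above them.

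Genes that control entry into the cycle showed no common difference. Of 116 other cell cycle genes in 5 lists, limma called 0 higher and 0 lower (39 higher and 16 lower at an unadjusted p under 0.05). Without weight-cycled replicate 1 it called 4 of 11 entry activators, 5 of 13 inhibitors and 2 of 14 E2F, MYB and DREAM factors, all lower, where 27.6% of all genes were called lower. Of the other replication genes it then called 5 higher and 1 lower, and of the other mitosis genes 13 higher and 2 lower, where 1.41% of all genes were called higher. Among 11 activators of cycle entry, every weight-cycled library was above every obese library for 0 and below for 2, Cdk4 and Skp2, where 12.2% of all genes were below. Cdk4, the G1 kinase on which beta-cell division depends, averaged 28.3 ± 0.931 TPM on the obese side against 20.6 ± 2.97 TPM on the weight-cycled side (SD, n = 4), a log2 difference of -0.45 (SE 0.0956). Ccnd2, the main D cyclin of islets, averaged 29.6 ± 4.08 TPM on the obese side against 20.1 ± 5.18 TPM on the weight-cycled side, a log2 difference of -0.56 (SE 0.182), with overlap. Myc and Skp2 differed by -0.16 (SE 0.06) and -0.06 (SE 0.0165). Among 13 inhibitors and pocket proteins 0 separated in either direction, and Cdkn1b (p27), Cdkn2b (p15), Rbl2 and Trp53 differed by -0.30 (SE 0.115), -0.29 (SE 0.101), -0.40 (SE 0.131) and -0.44 (SE 0.15). Among 14 E2F, MYB and DREAM genes 0 separated. The medians of these 3 lists were -0.16, -0.29 and -0.06 and depended on scaling, since median-of-ratios scaling gave 0.05, -0.04 and 0.03. E2f1, which switches on replication genes, averaged 2.36 ± 0.423 TPM on the obese side against 3.2 ± 0.573 TPM on the weight-cycled side (log2 difference 0.32 (SE 0.128)), while E2f4, Lin37 and Tfdp1 differed by -0.52 (SE 0.143), -0.22 (SE 0.0954) and -0.31 (SE 0.101).

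Further replication and mitosis genes were measured from lists that were chosen with earlier results of these data known. Of 28 other replication genes, 6 were higher without overlap (Cdc6, Gmnn, Gins1, Rfc4, Uhrf1 and Chaf1b) and 2 lower (Pola1 and Slbp), where 1.19% and 12.2% of all genes were, with a median log2 difference of 0.07. Cdc6, which loads the helicase, averaged 0.0139 ± 0.00993 TPM on the obese side against 0.0731 ± 0.021 TPM on the weight-cycled side (SD, n = 4), and Mcm10 differed by 0.08 (SE 0.0265), Gins1 by 0.28 (SE 0.0844) and Pola1, a polymerase subunit, by -0.15 (SE 0.045). Of 50 other mitosis genes, 17 were higher without overlap and 2 lower (Bub3 and Pttg1), with a median of 0.09 that stayed above 0 at 0.13 after median-of-ratios scaling, where 1.19% of all genes were higher and 12.2% lower without overlap. Cenpk, a kinetochore gene, averaged 0.139 ± 0.065 TPM on the obese side against 1.03 ± 0.283 TPM on the weight-cycled side (log2 difference 0.82 (SE 0.0998), limma adjusted p = 0.0912). Spc24, of the outer kinetochore, averaged 1.37 ± 0.38 TPM on the obese side against 3.51 ± 0.703 TPM on the weight-cycled side, and Pbk, a mitotic kinase, averaged 0.134 ± 0.0575 TPM on the obese side against 1.6 ± 0.709 TPM on the weight-cycled side. Trip13, which remodels checkpoint proteins, averaged 0.0134 ± 0.00688 TPM on the obese side against 0.0829 ± 0.022 TPM on the weight-cycled side. Of the 2 lower genes, given after their values were seen, Bub3 averaged 8.8 ± 0.352 TPM on the obese side against 7.23 ± 0.0936 TPM on the weight-cycled side. Pttg1 averaged 5.81 ± 0.594 TPM against 3.8 ± 0.388 TPM, and the log2 differences were -0.25 (SE 0.0506) and -0.50 (SE 0.0885).

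**Figure D5:**
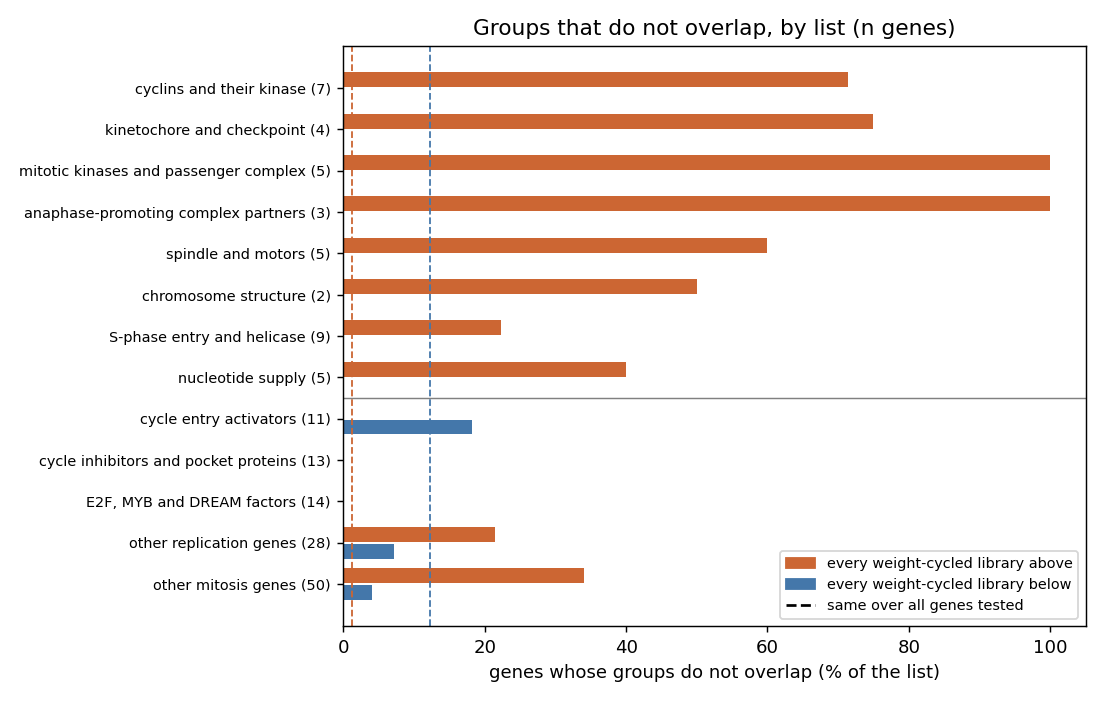
Share of each role (above the line) and each further cell cycle list (below it) whose groups do not overlap, in % of its genes, with orange bars for weight-cycled above obese and blue bars for below. Dashed lines are the same shares over all genes tested, 1.19% above and 12.2% below. Every role of the members has an orange bar and none a blue one, and the lists of activators, inhibitors and E2F, MYB and DREAM genes have no orange bar.

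Markers of cells that islets can hold were summed in each library. Endothelial markers (7 genes) summed to 47.8 to 77.5 TPM in obese and 26.4 to 55.1 TPM in weight-cycled libraries, macrophage markers (8 genes) to 46.3 to 54.7 and 36.9 to 46.4 TPM, and stellate and fibroblast markers (8 genes) to 10.8 to 15.2 and 6.82 to 15.4 TPM. Lymphocyte markers (7 genes) summed to 1.17 to 2.22 and 0.537 to 1.05 TPM, ductal markers (7 genes) to 35.96 to 45.53 and 32.24 to 51.21 TPM, and acinar markers (10 genes) to 2307 to 4300.0 and 2895 to 6765 TPM. The lymphocyte sum was mostly Cd79a, with means of 1.53 TPM on the obese side against 0.738 TPM on the weight-cycled side. Of the 7 lymphocyte markers, 5 had a log2 difference above 0, and their median was 0.01. Schwann cell markers (4 genes) summed to 4.93 to 6.09 and 3.94 to 6.14 TPM, erythroid markers (4 genes) to 385 to 737 and 380 to 653 TPM, and adipocyte markers (4 genes, Adipoq and Lep listed at 0 in all libraries) to 6.60 to 10.6 and 5.30 to 11.3 TPM. Of these 59 markers, 0 were higher without overlap in weight-cycled islets and 5 were lower (Krt7, Esm1, Csf1r, Lyz2 and Cd79a, named after their values were seen), where 1.19% of all genes were higher and 12.2% lower. The islets carried their hormone transcripts, and beta-cell markers (7 genes) summed to 789600 to 803400 and 784900 to 812600 TPM. Mafa, Nkx6-1, Slc2a2 and Ucn3 were lower without overlap and the alpha-cell marker Ttr higher. Alpha-cell markers (6 genes) summed to 4565 to 12320 and 3124 to 8526 TPM, delta-cell markers (3 genes) to 2876 to 4581 and 2362 to 3860 TPM, and Ppy, of PP cells, was at 2148 to 8677 and 2943 to 7377 TPM. The part of any of these cells in the mitosis levels was not tested.

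Scaling between libraries changed how many genes were higher. After median-of-ratios scaling, which matches the libraries at the median gene, 864 genes were higher (4.43%) and 871 lower without overlap, in place of 231 and 2373. Members without overlap were then 26, all higher, and limma called 0 of them (0.00513% of all genes were called higher). Quantile scaling gave 29 members (4.38% of all genes) and removal of the length trend 30 (7.12%, with the median of all genes moved from -0.07 to 0.04). Of the members without overlap, 5 were replication genes after median-of-ratios scaling, 8 after quantile scaling and 6 after length removal. Mitosis genes were 21, 21 and 24 in the same order. All 40 members had a log2 difference above 0 with each of the first 2 scalings. Replication genes moved most, from a median of 0.13 to 0.30 and 0.33 with the first 2 scalings, and mitosis genes from 0.32 to 0.39 and 0.43. The log2(TPM + 1) scale shrinks the change of low genes, and the median level was 0.79 TPM for replication and 0.24 TPM for mitosis genes. The part of this in the moves was not tested. Without obese replicate 1, 25 members did not overlap (1.56% of all genes), and without weight-cycled replicate 2 the share of all genes was 1.58%.

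With a filter at a mean of 1 TPM, as is common for TPM, only 9 members remained, and 3 of them (Cdk1, Cenpa and Mad2l1) passed the filter only through their weight-cycled level. In that fit limma called 5 members higher (Cdk1, Cenpa, Mad2l1, Cks1b and Tyms) where 1.21% of the 8127 genes were called higher, with limma adjusted p = 0.0144 for Cdk1, 0.0382 for Cks1b and 0.0439 for Tyms. The 5 became 0 when obese replicate 1 or weight-cycled replicate 2 was left out, 1 for obese replicate 2 or 3, 2 for weight-cycled replicate 3 or 4, 4 for obese replicate 4 and 5 for weight-cycled replicate 1. Without weight-cycled replicate 2 only 7 members passed the filter. Cdk1 and Cenpa fell below it, so they were not tested there. In the fit with no filter, leaving out weight-cycled replicate 2 gave 1 call among members, Ccnb1, where 0.0104% of all genes were called higher, and the obese replicates and weight-cycled replicates 3 and 4 gave 0. Exons of 10 members share bases with another gene above 0 TPM, among them Kif20a with Cdc23 on the opposite strand (1271 bases, mean 5.58 TPM). Pcna has an annotated copy, Pcna-ps2, listed at a mean of 0.146 TPM, and reads of the pair may be mixed. Whether the libraries keep the strand was not stated.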

How the data were processed

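RNA-seq of islets from 4 obese and 4 weight-cycled libraries was analysed. Per the submitters' processing notes, the authors quantified reads with Salmon 1.5.2 on build mm10 and deposited gene-level TPM; the annotation, bias options and read numbers are not stated in those notes or the labels. TPM was converted to log2(TPM + 1) and fitted with limma 3.58.1 in R 4.3.3 (variance trend, two-sided, Benjamini-Hochberg threshold 0.05) over the 19482 genes above 0 TPM in any library. No filter on level was used because most members lie below 1 TPM. Counts of genes whose groups do not overlap are descriptions. The members and lists were chosen with earlier results of these data known. Library values are printed for members without overlap and for the 12 smallest p, and the 4 smallest p are named in each further list. Gene places and lengths come from GENCODE M21. Tested on simulated data over 19482 genes, limma recovered 44.8%, 74.6% and 100% of genes above 1 TPM changed by 0.5, 1 and 2 on the log2 scale. It also called 11 unchanged genes. The simulated noise was independent between genes, and recovery for genes as low as the 31 members below 1 TPM was not tested. Alternatives varied the pseudocount, filter, scaling, length correction, variance model, replicate block and libraries; those combining a pseudocount of 0.1 with another choice were chosen after seeing the data.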

Additional observations from a re-analysis of the deposited data

Results flagged for a closer look

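Plk1 in obese replicate 2, at 0.04857 TPM, lay apart from the other 3 obese libraries, at 0.0404 to 0.0416 TPM. Mki67 in weight-cycled replicate 1, at 0.1619 TPM, lay apart from the other 3 weight-cycled libraries, at 0.0211 to 0.0428 TPM. In both, the gap to the nearest library exceeded Dixon's 95% critical value, a share of the group's range. Of 84 groups examined 2 met this, and chance gives about 4.2.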

How the results depend on the processing

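No member was called lower under any of 42 alternatives, and none of the 24 members without overlap changed direction. In order, values are the medians of members, mitosis and replication genes. A pseudocount of 0.1 gave 0.8584, 1.127 and 0.2439 (the same with the replicate block), and one of 5 gave 0.0736, 0.0807 and 0.0381. A filter at 0.1 TPM called 831 genes and 15 members (0.621% of all genes were called higher; mitosis median 0.5061), of which 6 (Ccnb1, Ccnb2, Ccna2, Birc5, Cdca8 and Tk1) passed the filter only through their weight-cycled level. A filter at 1 TPM called 2044 and 5, left 3 members without overlap and gave 0.3959, 0.9175 and 0.0128. With all libraries, the mitosis median at this filter rests on Cdk1, Cenpa, Mad2l1 and Cks1b only. The first 3 passed it only through their weight-cycled level and were the 3 without overlap. Medians of members and mitosis genes at this filter, here and below, are thus partly set by the filter. Median-of-ratios scaling called 1 gene (members 0.3597, replication 0.2957), and quantile scaling gave 0.3751 and 0.3275. Removing the length trend called 195 and 20 (0.361, 0.4859, 0.279), an untrended variance 5 genes, and a threshold of 0.1 1613 and 16. With the 1 TPM filter, median-of-ratios scaling called 147 and 2, with 3 without overlap (0.5746, 1.1433, 0.3226), and length removal 291 and 3, with 4 (0.5763, 1.0782, 0.2726). With a pseudocount of 0.1, the 0.1 TPM filter called 429 and 15 (0.9737, 1.6337, 0.2439), median-of-ratios scaling 12 and 3 (1.016, 1.2669, 0.5517) and length removal 126 and 18 (1.1258, 1.4179, 0.4774). The cause of these shifts was not tested.

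Same-numbered libraries shared only a number (correlations 0.21, -0.276, -0.052 and 0.231, and not every library was nearest its own number). The replicate block called 0 genes and, with the 1 TPM filter, 2903 genes and 5 members, with 3 without overlap and the medians of that filter unchanged (0.3959, 0.9175, 0.0128).

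Leaving out 1 library gave 0 to 5609 genes and 0 to 20 members called, 24 to 27 members without overlap and medians of 0.2192 to 0.2918, 0.2626 to 0.3809 and 0.0987 to 0.1521. The highest counts of calls were without weight-cycled replicate 1. With the 1 TPM filter the ranges were 0 to 4660, 0 to 5, 1 to 5, 0.1741 to 0.467, 0.4305 to 0.9469 and -0.006 (without obese replicate 4) to 0.0647. With a pseudocount of 0.1 they were 0 to 5724, 0 to 22, 24 to 27, 0.6691 to 0.9729, 0.9142 to 1.2728 and 0.2096 to 0.339. The lowest filtered medians of members and mitosis genes, 0.1741 and 0.4305, were without weight-cycled replicate 2, where only 7 members passed the 1 TPM filter.

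Among the 16 members with overlap, 7 changed direction somewhere. Median-of-ratios scaling, quantile scaling and median-of-ratios scaling with a pseudocount of 0.1 gave 0.0087, 0.0426 and 0.0288 for Mcm4, 0.2151, 0.2681 and 0.3028 for Mcm7 and 0.1052, 0.1752 and 0.1714 for Rrm1 (0.2151 and 0.1052 also with the 1 TPM filter). Length removal alone, with that filter and with that pseudocount gave 0.0648, 0.1307 and 0.0906 for Mcm7 and 0.1048, 0.2726 and 0.2114 for Rrm1. With 1 library left out, over all 3 settings, the lowest and highest values were -0.0037 and 0.366 for Foxm1, -0.0171 and 0.2196 for Mcm2, -0.0528 and 0.328 for Mcm6, -0.0975 and 0.0791 for Mcm7 and -0.0659 and 0.0686 for Dut.

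The deposited values hold no read numbers, so the counting error of members near 0 TPM is unknown.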
